A study of Homo sapiens with 12 samples.

Results

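The effect of adding AZD8055 to an SHP2 inhibitor was read by setting cells that received both drugs against cells of the same line that received the SHP2 inhibitor alone. The libraries were chosen by their labels and are 6 of the 12 in the series, 1 with the combination and 1 with compound #57 alone in each of Hep3B, MHCC97H and Huh7, which gives 3 pairs. All 11548 genes of the table were compared in each pair. These are human hepatocellular carcinoma (HCC) lines, and the RNA was sequenced after 48 h of treatment in Hep3B and Huh7 and after 24 h in MHCC97H, so that a difference between MHCC97H and the other lines cannot be told apart from a difference in exposure. AZD8055, an inhibitor of the mTOR kinase, was present at 100 nM in the combination and absent from the other 3 libraries. Compound #57, an allosteric inhibitor of the phosphatase SHP2, was present at 5 µM in the combination. Its dose in the cells that received it alone is not given in the sources used here, so that a difference in that dose cannot be told apart from the addition of AZD8055. Each cell line and treatment has 1 library, so the p-values do not measure the spread between replicate cultures. They rest on how far treatment changes varied between the 3 lines, estimated from all 12 libraries with the spread of other genes taken into account. The spread of the 3 paired changes alone is thus not what they measure.

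The libraries held 11396971 to 15629071 reads with compound #57 alone and 11627361 to 12368407 with the combination. All 11 hepatocyte markers of a fixed list were in the table, and their summed level with compound #57 alone was 614723 reads per 10000000 in Hep3B, 523306 in Huh7 and 54769 in MHCC97H. In MHCC97H, APOA1 and TTR lay under 10 reads per 10000000 in both libraries, and ALB was at 732 against 402282 in Hep3B. Some secreted markers were thus low or nearly absent in MHCC97H, while it kept the keratins KRT8 and KRT18. Of the 11 markers, 8 had at least 25 reads in both MHCC97H libraries. Of the blood, endothelial and fibroblast markers, only LYZ, PECAM1, COL1A1, COL1A2 and LUM were in the table and the others were not analysed here. A level below is the number of reads of a gene scaled to 10000000 reads per library. A log2-fold change is the difference between the log2 of level plus 1 in the combination and in compound #57 alone. On this scale the change of a gene with few reads is understated.

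The kinase mTOR works in a pair of complexes that read amino acids, energy and growth factor signals. Its active form promotes translation, ribosome production, lipid and nucleotide synthesis, and it restrains autophagy and, through AKT, the FOXO transcription factors. SHP2 passes signals from receptor tyrosine kinases (RTK) to RAS and the MAPK cascade, whose activity is often read from feedback genes such as the DUSP and SPRY families.

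With AZD8055 on top of compound #57, 483 of 11548 genes (4.18%) had a limma adjusted p under 0.05. Of these, 302 were higher (2.62% of all genes) and 181 were lower (1.57%), and all 483 moved the same way in each of the 3 cell lines. Both shares of all genes are the background for every count of called list members below. Over all genes, 26.3% were higher in all 3 cell lines and 21.8% were lower in all 3. Serine synthesis enzymes, lipid enzymes and glycolytic enzymes were among the genes that fell, while ribosomal proteins, translation factors and targets of FOXO were among those that rose. The size of the change differed between the lines. At least 2-fold higher were 309 genes in Hep3B (2.68%), 574 in MHCC97H (4.97%) and 650 in Huh7 (5.63%). At least 2-fold lower were 318 (2.75%), 381 (3.3%) and 360 (3.12%) in the same order. A change of at least 2-fold in all 3 lines was seen for 61 genes upwards (0.528%) and 19 downwards (0.165%). Over all genes the median was close to 0, at 0.04 in Hep3B and 0.01 in both MHCC97H and Huh7. Without the cell line as a term no gene was called, with 370 at an unadjusted p under 0.05. Without Huh7 no gene passed the limma adjusted p of 0.05, although 1259 had an unadjusted p under 0.05, without Hep3B only BMF passed (2442 unadjusted), and without MHCC97H 331 genes did, 171 of them among the 483. With only the 6 libraries compared, 265 genes were called, 175 of them among the 483.

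The called genes with a large rise in every line had different functions. YPEL1 (chromosome 22, 21697536 to 21735794, hg38) went from 37.8 to 160 in Hep3B, from 8.77 to 48.5 in MHCC97H and from 45.0 to 244 in Huh7, and the mean rise on the log2 scale was 2.27 (SE 0.31, limma adjusted p = 0.014). Every combination library lay above all 3 libraries with compound #57 alone. PDE5A, a phosphodiesterase that degrades cGMP, went from 108 to 510 in Hep3B, from 5.26 to 25.1 in MHCC97H and from 122 to 508 in Huh7. Its mean log2-fold change was 2.11 (SE 0.28, limma adjusted p = 0.0137), and its level in MHCC97H was the lowest in both treatments. JUNB, a subunit of AP-1, rose from 244 to 943, from 274 to 830 and from 79.6 to 359 in Hep3B, MHCC97H and Huh7, with no overlap between the groups. Its mean log2-fold change was 1.90 (SE 0.34, limma adjusted p = 0.0263). The actin-binding protein TAGLN rose from 152 to 948, from 189 to 560 and from 1646 to 7343 in the same order, by a mean of 2.12 on the log2 scale (SE 0.44, limma adjusted p = 0.0368). The lysyl oxidase family member LOXL4, the receptor GPRC5A and NATD1, with BMF and FBXO32 described further on, also belonged to the 10 called genes whose smallest rise over the lines was largest, and the first 3 had means of 1.88, 1.95 and 1.95.

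**Figure D1:**
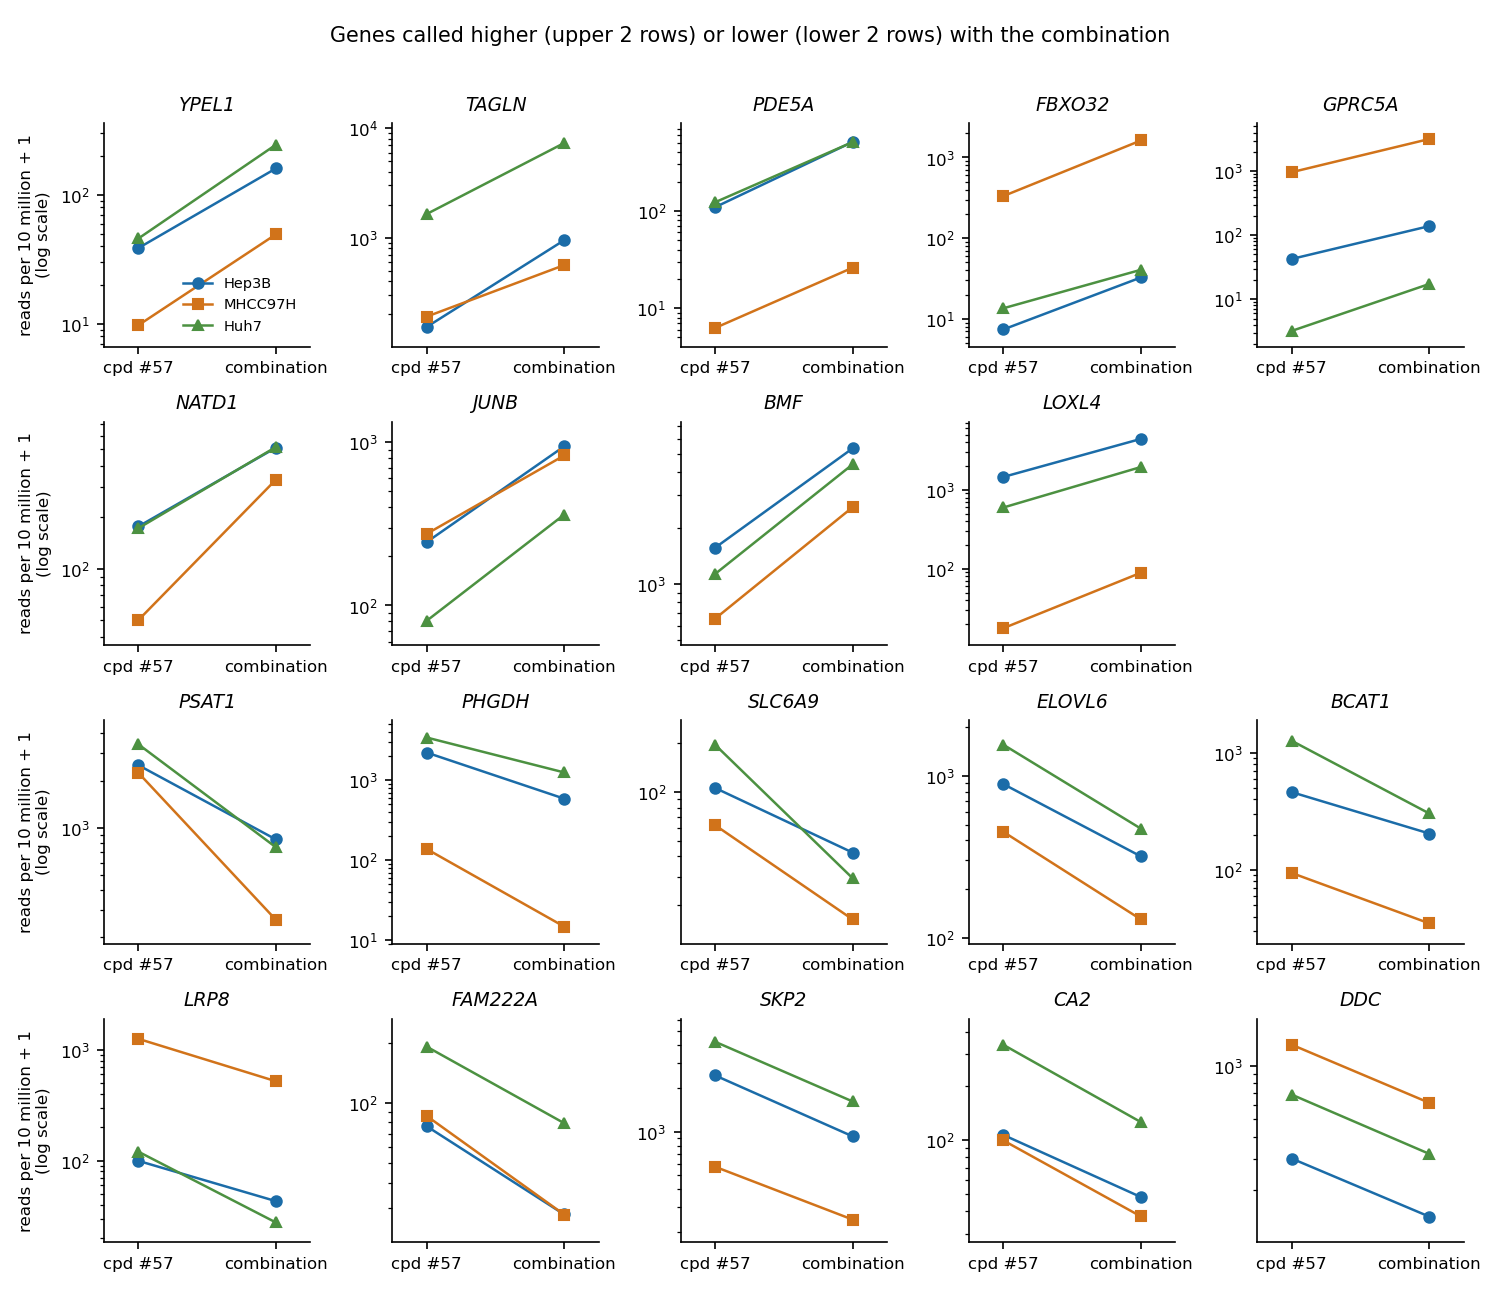
Levels of 9 genes called higher (upper 2 rows) and 10 called lower (lower 2 rows), from those whose smallest change over the 3 cell lines was largest, in reads per 10000000 plus 1 on a log scale. Each line joins the compound #57 library (left) and the combination library (right) of 1 cell line, and all lines of a gene slope the same way while starting at different levels, as for FBXO32 at 6.40 in Hep3B and 332 in MHCC97H with compound #57 alone.

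The largest shared fall was in serine synthesis. PSAT1 (chromosome 9, 78297125 to 78330093, hg38) encodes phosphoserine aminotransferase and fell from 2503 to 841 in Hep3B, from 2237 to 258 in MHCC97H and from 3400 to 750 in Huh7. All 3 combination libraries lay under all 3 with compound #57 alone, and the mean log2-fold change was -2.29 (SE 0.32, limma adjusted p = 0.0156). PHGDH (chromosome 1, 119648411 to 119744218), the dehydrogenase that opens this pathway, fell from 2223 to 588, from 137 to 13.7 and from 3430 to 1253 in the order Hep3B, MHCC97H and Huh7. In MHCC97H the fall was from 156 to 17 reads, or -3.23 on the log2 scale, with a 95% Clopper-Pearson interval of the read ratio from -4.13 to -2.59. The mean for PHGDH was -2.20 (SE 0.44, limma adjusted p = 0.0345). The glycine transporter SLC6A9 fell from 105 to 41.3, from 61.4 to 15.4 and from 195 to 28.4 in the same order, and its combination libraries all lay under those with compound #57 alone. Intervals of read ratios cover counting error only and compare a pair of libraries, not the conditions.

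PSAT1 and PHGDH belong to a larger group that the transcription factor ATF4 is known to drive, with enzymes and transporters of amino acids and one-carbon units. Of 30 members, 9 fell (PSAT1, PHGDH, STC2, TRIB3, CTH, SLC1A4, XPOT, SHMT2 and GPT2), 1 rose and 20 did not pass the test. The median log2-fold change of the 30 was -0.55 (Hep3B), -0.74 (MHCC97H) and -0.78 (Huh7), and 22 members were lower in all 3 lines. Without Huh7 or without Hep3B none of the 30 was called. STC2, a secreted glycoprotein, fell from 395 to 198, from 643 to 279 and from 386 to 69.7, by a mean of -1.55 (SE 0.35, limma adjusted p = 0.0426). The pseudokinase TRIB3 fell from 2115 to 1090, from 2539 to 980 and from 1216 to 377. The member that rose was SLC38A2, a transporter of neutral amino acids, with log2-fold changes of 1.07, 0.32 and 0.73. ATF4 itself was not called, at 0.17, 0.11 and 0.20, and asparagine synthetase ASNS had -0.48, -1.95 and -1.21 (limma adjusted p = 0.0533).

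Cytosolic tRNA synthetases, which load tRNAs with their amino acids, were split. Of 20, 4 fell (YARS, IARS, GARS and AARS), QARS rose and 15 did not pass, and their median was -0.07 (Hep3B), -0.72 (MHCC97H) and -0.33 (Huh7). The 4 became 2 with only the libraries compared and 0 without the trend or without any 1 of the lines. IARS went from 2730 to 1893, from 5130 to 1952 and from 4480 to 2316, a mean of -0.96 (SE 0.21, limma adjusted p = 0.0408). QARS went the other way, from 1742 to 2411, from 706 to 1205 and from 2062 to 3745 (limma adjusted p = 0.0323). The promoters of the list were searched on both strands for TGATGNAA, the letters of the element bound by ATF4 and its C/EBP partners, in windows of 250 bases before to 50 after the RefSeq start (GRCh38.p14). It was found in 6 of 16 promoters of this list (37.5%) and in 6 of 24 of the amino acid list (25%), beside 3.67% of all 27305 promoters. Of the called members with a promoter, the letters stood in 2 of 4 tRNA synthetases, IARS and AARS, and in 0 of 8 of the amino acid list. Both are shown because they are the called genes that carry the match, 60 bases each on the minus strand of the genome, with the match in capitals in its reverse complement.
IARS (chr9:92293698-92293757): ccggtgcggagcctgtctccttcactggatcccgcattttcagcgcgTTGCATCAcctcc
AARS (chr16:70289660-70289719): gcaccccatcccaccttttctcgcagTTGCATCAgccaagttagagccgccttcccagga

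Of 15 genes of fatty acid synthesis and modification, 5 fell (ELOVL6, FADS1, ACACA, ACLY and ME1), none rose and 10 did not pass. The list median was -1.08 in Hep3B, -1.48 in Huh7 and -0.30 in MHCC97H. ELOVL6, an elongase of saturated fatty acids, fell from 887 to 317 in Hep3B, from 449 to 129 in MHCC97H and from 1555 to 470 in Huh7 (mean -1.67, SE 0.23, limma adjusted p = 0.0137). ACACA, acetyl-CoA carboxylase, fell from 2146 to 1279, from 2448 to 1505 and from 2195 to 788 (mean -0.97, limma adjusted p = 0.0391). The desaturase FADS1 fell by similar steps in all lines, with -1.02, -0.98 and -1.17. Fatty acid synthase FASN was not called, with -1.24, -0.30 and -1.49, nor was the desaturase SCD with -1.80, -0.47 and -1.62.

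Of 25 genes of cholesterol synthesis and uptake, 3 fell (ACAT2, EBP and FDPS) and 22 did not pass, with medians of -1.30 (Hep3B), -0.24 (MHCC97H) and -1.11 (Huh7), and 20 of 25 were lower in all 3 lines. At least 2-fold lower were 20 of them in Hep3B, 15 in Huh7 and 1 in MHCC97H. ACAT2, a thiolase at the start of the pathway, fell from 4821 to 1414, from 1185 to 576 and from 6149 to 1942 in Hep3B, MHCC97H and Huh7 (mean -1.49, SE 0.35, limma adjusted p = 0.0452). EBP, a sterol isomerase, fell from 1898 to 648, from 1847 to 1163 and from 5711 to 1878. With Hep3B and Huh7 alone, 17 of the 25 cholesterol genes and 11 of the 15 fatty acid genes were called lower by limma, and without either of these lines none was. Without the mean-variance trend 1 gene of each list was called. The difference between cell lines was not tested, and time differs with line. SREBF1, which encodes the lipogenic factor SREBP1, had -0.57, -0.05 and -1.17 and was not called. The letters TCACNCCAC of a sterol element were found in 1 of 18 promoters of the cholesterol list (5.56%), in none of a called member, beside 1.15% of all promoters.

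**Figure D2:**
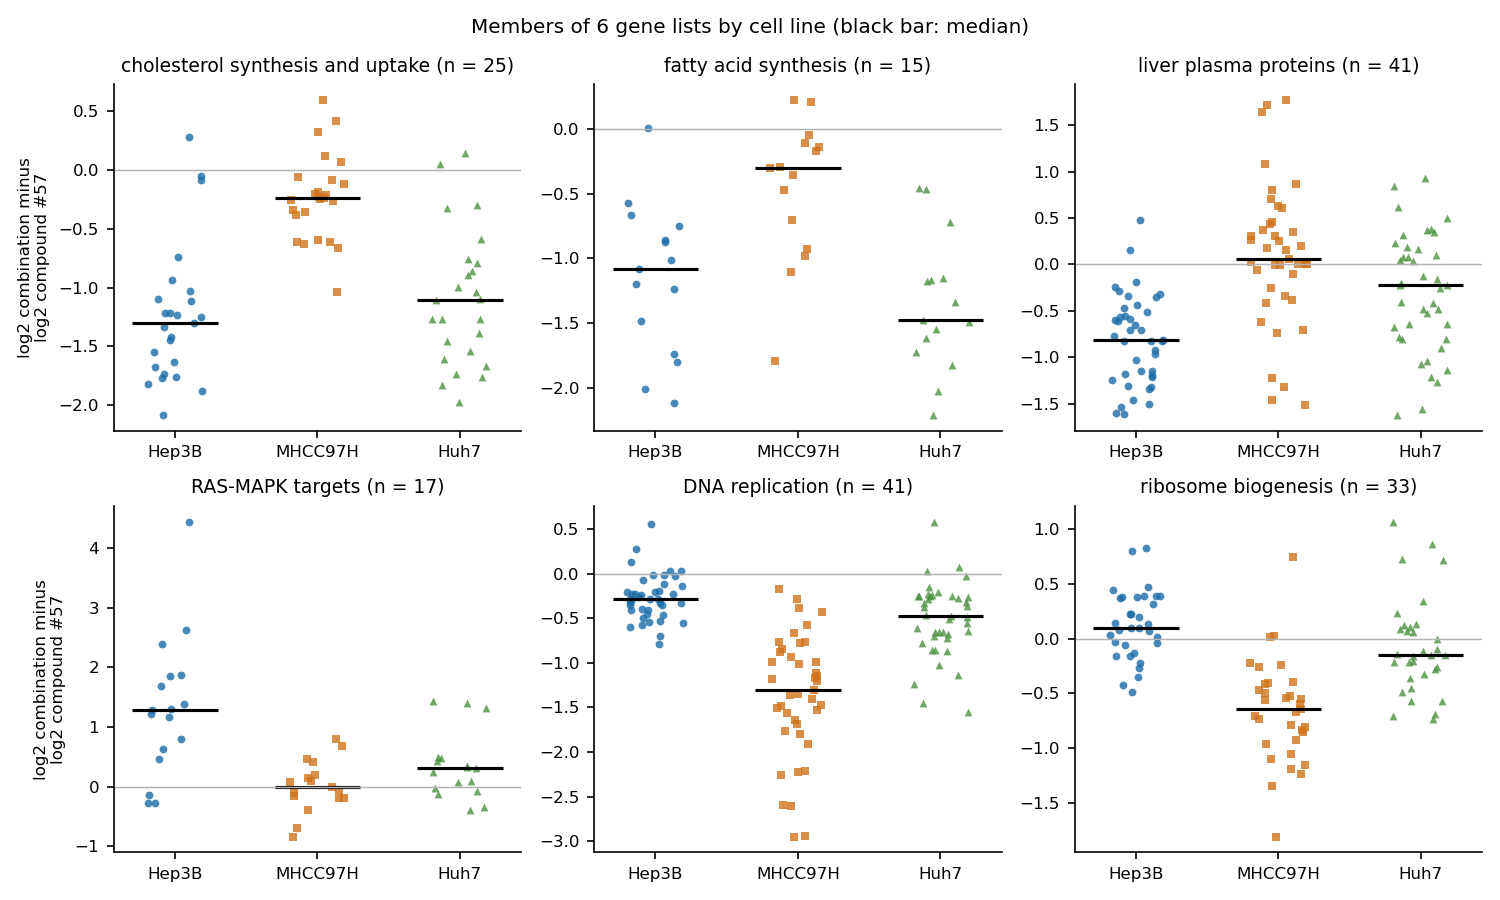
Log2-fold change (combination minus compound #57) of every member of 6 gene lists in each cell line, 1 point per gene, with a black bar at the median. Cholesterol, fatty acid and liver plasma protein genes lie lowest in Hep3B or Huh7, while DNA replication and ribosome biogenesis genes lie lowest in MHCC97H, with medians of -1.31 and -0.64.

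Of 20 glycolysis genes, 6 fell (LDHA, PKM, PGAM1, TPI1, GPI and PGK1) and 14 did not pass, with medians of -0.42 (Hep3B), -0.19 (MHCC97H) and -0.61 (Huh7). The 6 became 3 without the mean-variance trend, 2 with only the libraries compared and 0 without any 1 of the 3 lines. LDHA, lactate dehydrogenase A, fell from 2672 to 1529, from 7817 to 4314 and from 4110 to 1472 (mean -1.05, SE 0.24, limma adjusted p = 0.045). PKM, pyruvate kinase, fell from 5370 to 3863, from 33276 to 15571 and from 6737 to 3509 (limma adjusted p = 0.0336). In the hypoxia list, KDM3A was called higher (0.62, 0.66 and 0.59) and 12 of 13 did not pass. Of 68 genes of oxidative phosphorylation, 6 fell and 62 did not pass, led by cytochrome c, CYCS, from 3079 to 1950, from 2939 to 872 and from 2251 to 1153. The median of these 68 was -0.17, -0.27 and -0.38. Of 31 genes of fatty acid oxidation and the peroxisome, HSD17B4, SLC25A20 and ETFA fell, and the medians were -0.29, 0.15 and -0.24.

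In nucleotide synthesis, 3 of 23 genes fell (PPAT, SHMT1 and IMPDH1) with medians of -0.28 (Hep3B), -0.72 (MHCC97H) and -0.43 (Huh7). PPAT catalyses the committed step of purine synthesis and fell from 704 to 445, from 628 to 211 and from 481 to 295 (limma adjusted p = 0.045). The proteasome subunits PSMD1 and PSMD2 fell, while 30 of 32 members did not pass, beside 1.57% of all genes called lower. All 32 had values below 0 in MHCC97H, with a median of -0.55. The medians were -0.06 in Hep3B and -0.38 in Huh7. Of 21 ER chaperones and unfolded protein response genes, SDF2L1 fell from 221 to 110, from 125 to 37.2 and from 111 to 28.4 (mean -1.55, limma adjusted p = 0.025). ATF6, a sensor of this response, rose with 0.90, 0.30 and 0.53, and the list medians were -0.32, -0.86 and -0.65. ATF6 was not called without the mean-variance trend, with only the libraries compared or without MHCC97H.

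Ribosomal protein mRNAs rose. Of 79 cytosolic ribosomal protein genes, 40 rose, none fell and 39 did not pass, and 71 were higher in all 3 lines. The list median was 0.73 (Hep3B), 0.30 (MHCC97H) and 0.57 (Huh7), so the change of a single gene was modest, with 3, 0 and 1 members at least 2-fold higher. RPL13A, a protein of the large subunit, rose from 5787 to 12354, from 6619 to 12794 and from 5254 to 9441, and the groups did not overlap (mean 0.96, SE 0.11, limma adjusted p = 0.0104). RPL4 rose from 7251 to 15346, from 7795 to 11531 and from 9057 to 16663, and RPL28 from 2413 to 4288, from 2595 to 3829 and from 2123 to 4448. The count of called members was 22 with limma without the mean-variance trend, 1 with only the 6 libraries compared, 29 without MHCC97H and 0 without Hep3B or without Huh7. Many of these genes have processed pseudogenes, and how reads with several matches were counted is not given in the sources used here.

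Translation factors were mixed, with 9 of 38 higher, 1 lower and 28 not called. EEF2 (chromosome 19, 3976056 to 3985463, hg38), which moves the ribosome along the mRNA, rose from 29643 to 77366, from 19369 to 38821 and from 20399 to 57517 (mean 1.29, SE 0.17, limma adjusted p = 0.0137). EEF1A1, which brings aminoacyl-tRNA to the ribosome, rose from 41847 to 100562, from 24348 to 47321 and from 41579 to 83998 (limma adjusted p = 0.0218). With only the 6 libraries compared, 3 of the 38 were called higher. Each combination library of EEF2 and EEF1A1 lay above every library with compound #57 alone. EIF4B rose with 0.99, 0.90 and 1.25, and EIF3E, EIF3L, EIF3F, EIF3H, EIF3D and TPT1 were the other members called higher. EIF4EBP1, the inhibitor of cap-dependent initiation that mTOR phosphorylates, fell from 553 to 375, from 378 to 173 and from 551 to 207 (mean -1.03, SE 0.21, limma adjusted p = 0.0366). The ribosome biogenesis list holds nucleolar factors and RNA polymerase I subunits. In it, POLR1D rose (0.82, 0.74 and 1.07) and 32 of 33 did not pass, beside 2.62% of all genes called higher. The list medians were 0.10, -0.64 and -0.15. Ribosomal proteins and the factors that assemble ribosomes thus had medians of opposite sign in MHCC97H and Huh7.

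mRNAs of ribosomal proteins and several translation factors are known to begin with a cytosine and a run of pyrimidines, the terminal oligopyrimidine (TOP) motif, through which mTOR controls their translation. The search for such a run was chosen after the values were seen. A C within 5 bases of the RefSeq start, followed by at least 4 more C or T, was found in 51 of 63 ribosomal protein genes with a promoter entry (81%) and in 15 of 29 translation factors (51.7%). It stood in 23.1% of 8711 genes of the table with an entry and in 21.1% of all 27305 promoters. Of the 228 genes called higher with an entry, 102 (44.7%) held it, beside 17 of 140 called lower (12.1%). All 6 translation factors called higher with an entry held the run. In RPL4, which is not shown, the run began only 5 bases after the annotated first base. The starts of 5 called genes are shown as examples, not as the 5 with the largest rise. Each has 15 bases on either side of the boundary before the annotated first base (GRCh38.p14). Capitals mark the run from the first C within 5 bases of the start that opens one. In EEF2, EEF1A1 and RPL13A, C or T also stand directly before the capitals.
EEF2 (chr19:3985449-3985478, minus strand): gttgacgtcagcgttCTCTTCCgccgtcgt
EEF1A1 (chr6:73521018-73521047, minus strand): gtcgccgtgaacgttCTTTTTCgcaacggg
EIF3F (chr11:7987322-7987351, plus strand): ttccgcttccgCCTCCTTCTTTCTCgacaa
RPL13A (chr19:49487593-49487622, plus strand): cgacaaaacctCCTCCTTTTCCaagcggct
RPS14 (chr5:150449725-150449754, minus strand): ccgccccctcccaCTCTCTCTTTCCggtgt

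**Figure D3:**
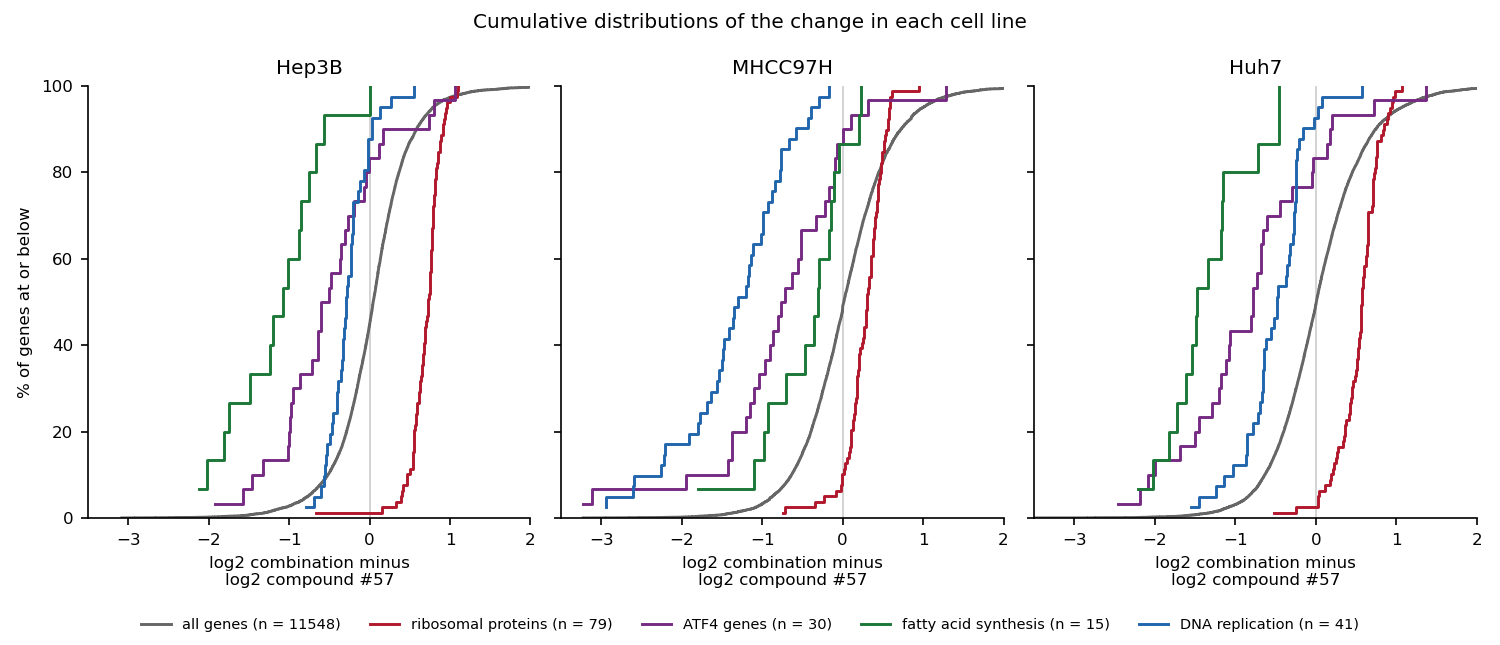
Cumulative distribution of the log2-fold change in each cell line, as the percentage of genes at or below the value on the x axis, for all genes and 4 lists. Ribosomal proteins lie to the right of all genes in each panel, ATF4 genes to the left, fatty acid synthesis farthest left in Hep3B and Huh7 (medians -1.08 and -1.48) and DNA replication farthest left in MHCC97H (median -1.31).

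Most targets and members of the FOXO pathway, which AKT restrains, were higher, with 16 of 24 higher in all 3 lines. Lower were 6 in Hep3B, 2 of them at least 2-fold, 0 in MHCC97H and 5 in Huh7. Of 24, 5 rose (FBXO32, IRS2, KLHL24, KLF6 and INSR), none fell and 19 did not pass, with medians of 0.28 (Hep3B), 0.96 (MHCC97H) and 0.31 (Huh7). IRS2, an adaptor of the insulin receptor, rose from 399 to 1016, from 35.1 to 101 and from 86.3 to 539 (mean 1.82, SE 0.37, limma adjusted p = 0.0345). INSR, the insulin receptor, rose from 1040 to 1776, from 326 to 693 and from 874 to 1430 (mean 0.86, SE 0.18, limma adjusted p = 0.0391). FBXO32, the ubiquitin ligase subunit atrogin-1, rose from 6.40 to 31.6, from 332 to 1623 and from 12.5 to 39.6, so that most of its mRNA was in MHCC97H. FOXO1 had 1.10, 0.82 and 1.56 and just missed the threshold (limma adjusted p = 0.0558). CDKN1B, which encodes the cell cycle inhibitor p27, had 0.10, 0.68 and -0.05. The letters GTAAACA bound by FOXO proteins stood in 4 of 20 promoters of the list (20%), in none of a called member, beside 3.41% of all promoters.

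Among the receptors, 2 of 21 RTK in the table rose, INSR and DDR1, and none fell, beside 2.62% of all genes called higher. Of the 58 RTK listed, 37 were not in the table. DDR1, a collagen receptor, rose from 1191 to 2076, from 1373 to 2997 and from 277 to 482 (mean 0.91, SE 0.15, limma adjusted p = 0.025). ERBB2 had 0.22, 0.91 and 0.55 (limma adjusted p = 0.0769), ERBB3 0.31, 1.69 and 0.19, and IGF1R 1.25, 0.41 and 0.10, none of them called. AXL had 2 and 19 reads in Hep3B, or 2.85 on the log2 scale (interval of the read ratio 1.54 to 6.73), and 125 and 447 in MHCC97H (1.71, interval 1.43 to 2.02). In Huh7, AXL had 0 reads with compound #57 alone and 6 with the combination, at least 2.33-fold higher when 3 reads are taken as the limit for the empty library, and limma did not call it (adjusted p = 0.0629). The median of the 21 RTK was 0.32 (Hep3B), -0.01 (MHCC97H) and 0.13 (Huh7). Of 19 receptor ligands, PDGFC, a ligand of the PDGF receptor, rose from 334 to 778, from 6.14 to 12.9 and from 387 to 964 (limma adjusted p = 0.0448). In MHCC97H it had 7 and 16 reads, and the interval of the read ratio, -0.29 to 2.60, included no change. The number of ligands called was 0 with 10 added instead of 1 or without the trend, 1 with only the libraries compared and 3 with voom. The list medians were 0.36, 0.53 and 0.53.

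Components of the PI3K and mTOR pathway itself went both ways, with medians of -0.02, 0.01 and -0.01 over 44 genes. IRS2 was the only call, beside 2.62% of all genes called higher. The lowest in Hep3B and Huh7 was DDIT4, an inhibitor of mTOR complex signalling, at -2.69 in Hep3B, -0.12 in MHCC97H and -2.76 in Huh7 (limma adjusted p = 0.162). MTOR was at 1438 and 1472 in Hep3B, 1293 and 834 in MHCC97H and 1389 and 892 in Huh7, with compound #57 alone and with the combination (mean -0.41, SE 0.15, limma adjusted p = 0.134). PTPN11, which encodes SHP2, was at 3069 and 3243, 4410 and 3551, and 4556 and 4132 (mean -0.12, SE 0.14). Neither mRNA is a measure of how far a drug acted on its protein. RPTOR had -0.10, -0.15 and -0.26, and RICTOR 0.48, 0.66 and 0.53 (limma adjusted p = 0.0843). IRS1 had -0.01, 1.42 and 0.57 and was not called.

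The RAS-MAPK targets had different values in the 3 lines. None of 17 was called, while their medians were 1.28 (Hep3B), 0.00 (MHCC97H) and 0.31 (Huh7), and 11 of the 17 were at least 2-fold higher in Hep3B, 3 in Huh7 and 0 in MHCC97H. Some of these genes had few reads in Hep3B with compound #57 alone, and the 11 members with at least 25 reads in both libraries had a median of 1.16. SPRY4, a feedback inhibitor of RTK signalling, had 3 reads and then 77 in Hep3B, or 4.44 on the log2 scale (interval of the read ratio 3.42 to 7.33). Its level went from 191 to 107 in MHCC97H and from 64.9 to 82.6 in Huh7. DUSP6, the ERK phosphatase, went from 11.5 to 64.8 in Hep3B (18 and 80 reads, 2.39, interval 1.74 to 3.32), from 537 to 745 in MHCC97H and from 318 to 292 in Huh7. The ETS factor ETV5 went from 6.40 to 44.5 in Hep3B, from 458 to 282 in MHCC97H and from 282 to 222 in Huh7, so Hep3B alone was higher and still below the other lines. DUSP4 had 1.88, 0.20 and 1.41, ETV4 1.30, 0.15 and 0.31, and IER3 1.86, 0.69 and 1.32 (limma adjusted p = 0.103). MYC had 1.08, -0.23 and 0.62 and CCND1 -0.28, -0.06 and 0.48. Whether the lines truly differ here was not tested.

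In the BCL2 family, BMF and BOK rose and 10 of 12 did not pass. BMF (chromosome 15, 40087890 to 40108892, hg38), a pro-apoptotic BH3-only protein, rose from 1566 to 5338 in Hep3B, from 652 to 2582 in MHCC97H and from 1132 to 4380 in Huh7. The groups did not overlap, and with a mean of 1.90 (SE 0.15, limma adjusted p = 0.00176) BMF stayed called without Hep3B (adjusted p = 0.0261) and without MHCC97H (0.0132), but not without Huh7 (0.389). BOK rose from 299 to 498, from 363 to 596 and from 488 to 1367 (limma adjusted p = 0.04). BCL2L11, which encodes BIM, had 0.26, 1.13 and 0.31, and the survival factor MCL1 had 0.28, 0.03 and 0.32. None of 18 p53 targets was called, with medians of 0.12, 0.19 and 0.10, and BBC3, which encodes PUMA, had 0.59, 2.01 and 1.10 (limma adjusted p = 0.0597). Of the 4 YPEL genes, YPEL1 and YPEL2 rose, and all 4 were higher in each line, with medians of 0.87, 2.11 and 1.12.

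Of the cell cycle lists, each had 1 called gene, beside 1.57% of all genes called lower. Without the mean-variance trend none of these lists had a called gene. With only the libraries compared, 2 genes of DNA replication, 1 G1 regulator and 0 mitosis genes were called lower. Of 41 DNA replication genes, UHRF1 alone was called, falling from 1342 to 829, from 2195 to 458 and from 1137 to 480 (mean -1.40, SE 0.33, limma adjusted p = 0.0479). The medians were -0.29 (Hep3B), -1.31 (MHCC97H) and -0.48 (Huh7), and 35 of 41 were lower in all 3 lines. At least 2-fold lower were 27 of the 41 in MHCC97H, 5 in Huh7 and 0 in Hep3B. Of 39 mitosis genes, FOXM1, a transcription factor of this phase, fell from 1838 to 1314, from 3763 to 2334 and from 2209 to 1023 (limma adjusted p = 0.0409), and the medians were -0.19, -0.28 and -0.69. Here Huh7 was the lowest line. Among G1 regulators, the cyclin CCND3 fell (-0.54, -1.56 and -1.53) and 18 of 19 did not pass. CDKN1A, which encodes p21, had -0.60, 0.38 and 0.07. SKP2, the F-box protein that marks p27 for degradation, fell from 2457 to 927, from 569 to 244 and from 4210 to 1620 (mean -1.33, SE 0.15, limma adjusted p = 0.00836).

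In the autophagy list, NBR1, ATG14 and RB1CC1 rose and 34 of 37 did not pass, with medians of 0.26, 0.52 and 0.23. ATG14, a subunit of the lipid kinase complex that starts the autophagosome, rose from 220 to 397, from 200 to 369 and from 334 to 703 with no overlap (mean 0.93, SE 0.12, limma adjusted p = 0.0137). NBR1, an autophagy receptor, rose from 1570 to 2851, from 1180 to 3092 and from 1030 to 1622 (limma adjusted p = 0.0454). Lysosomal genes as a group stayed near 0, with medians of 0.01, 0.23 and 0.14 over 45. Of these, GLA and ATP6V1A fell and none rose, beside 1.57% of all genes called lower. GLA, alpha-galactosidase A, fell from 266 to 160, from 1981 to 1189 and from 386 to 220 (limma adjusted p = 0.0191). The letters CACGTG, the element bound by TFEB and by MYC, stood in 9 of 27 lysosomal promoters (33.3%) and in 3 of 34 autophagy promoters (8.82%), beside 7.43% of all. Of the called members the letters were in ATG14, whose 60 bases before the start are shown for that reason (minus strand, match in capitals).
ATG14 (chr14:55411831-55411890): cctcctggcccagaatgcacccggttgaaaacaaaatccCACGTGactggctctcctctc

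None of 41 secreted liver proteins was called, with medians of -0.81 (Hep3B), 0.06 (MHCC97H) and -0.22 (Huh7), and 39 of the 41 were lower in Hep3B. In MHCC97H, 5 of the 41 had no more than 3 reads in either library and 18 had at least 25 in both, with a median of 0.13. ALB, serum albumin, went from 402282 to 181037 in Hep3B, from 732 to 256 in MHCC97H and from 76438 to 68526 in Huh7 (mean -0.94, SE 0.24, limma adjusted p = 0.0551). The summed level of the 11 hepatocyte markers went from 614723 to 293906 in Hep3B, from 54769 to 58721 in MHCC97H and from 523306 to 405873 in Huh7. Fewer cells that express these genes and less of their RNA per cell cannot be told apart in bulk RNA. ALB alone took a large share of the Hep3B reads, and the part of its fall in the scaled levels of other genes there was not tested.

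In the TGF-beta list, 3 of 22 rose, SMAD3 and TGIF1 among them, and 19 did not pass, with medians of 0.54, 0.31 and 0.26. SMAD3, the signal transducer of TGF-beta, rose from 715 to 1297, from 2923 to 5102 and from 872 to 1472 (mean 0.81, SE 0.13, limma adjusted p = 0.0247). None of 34 genes of extracellular matrix and integrins was called, with medians of 0.41, 0.44 and 0.30 and 19 of 34 higher in all 3 lines. THBS1, a matrix glycoprotein, had 1.95, 0.07 and 1.89. In the interferon and antigen presentation list, DDX60, HLA-E and IRF1 rose and 28 of 31 did not pass, with medians of 0.00, 0.52 and 0.00. HLA-E rose from 571 to 729, from 955 to 2153 and from 221 to 415 (limma adjusted p = 0.0323).

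Without MHCC97H, no member of the hypoxia, proteasome, RTK and interferon lists was called. The 6 calls in oxidative phosphorylation became 3 without the trend and 2 without MHCC97H or with only the libraries compared. The 5 in the FOXO list became 2 without the trend and 3 without MHCC97H, and the 3 in autophagy 1 and 2. Without Huh7 no list had a called member, and without Hep3B only the BCL2 family had, with BMF.

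**Figure D4:**
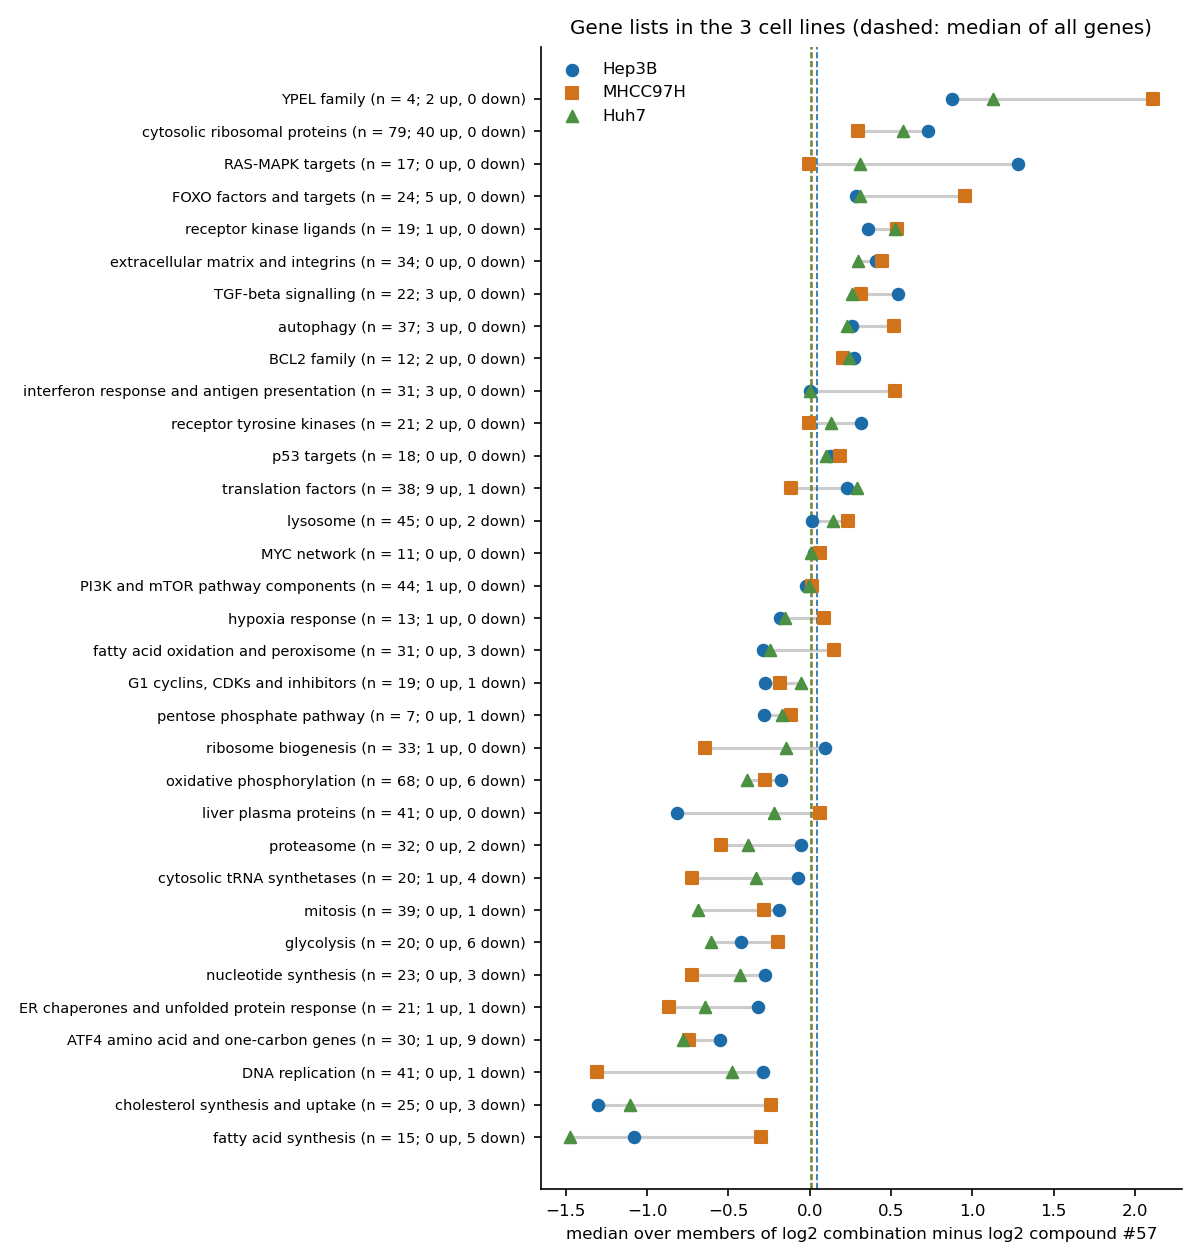
Median log2-fold change (combination minus compound #57, x axis) of 33 gene lists in Hep3B (circles), MHCC97H (squares) and Huh7 (triangles), with the number of members in the table and of those called higher or lower by limma. Dashed lines mark the median of all genes, and the spread of the lines is widest for DNA replication, the lipid lists, the YPEL family and the RAS-MAPK targets.

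The effect of AZD8055 was also measured without compound #57, as AZD8055 alone against untreated cells, in 6 other libraries that share no library with this comparison. Across the 11548 genes, the log2-fold changes with and without compound #57 had a Pearson correlation of 0.49 (Hep3B), 0.79 (MHCC97H) and 0.71 (Huh7), and Spearman correlations of 0.45, 0.79 and 0.69. These are across genes, which are not independent. Of the 302 genes called higher with compound #57 present, 280 were also higher in all 3 lines without it, and 175 of the 181 called lower were lower there. Over all genes, the sign with and without compound #57 was the same for 65.6% in Hep3B, 81.8% in MHCC97H and 75.8% in Huh7. These shares are per line and are no background for the counts over all 3 lines, for which none is given here. The calls are not independent of the AZD8055 and untreated libraries, since the spread was estimated from all 12 libraries. A test of the difference between both effects called 0 of 11548 genes (0%) by limma, with 178 genes at an unadjusted p under 0.05 and a smallest adjusted p of 0.9999, and it called 0 under each alternative setting that was run. A p that misses the threshold does not show that both effects are alike.

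Ribosomal protein medians differed in size between both settings in every line, and lipid gene medians mainly in Hep3B and Huh7. Without compound #57, ribosomal proteins had medians of 0.27 (Hep3B), 0.02 (MHCC97H) and 0.20 (Huh7), beside 0.73, 0.30 and 0.57 with it. The difference of both effects had an unadjusted limma p under 0.05 for 25 of the 79 genes, beside 178 of all 11548. Its median over the 79 was 0.37, and limma called none of them. These genes were read from the same 12 libraries and are not independent. Fatty acid synthesis had -0.47, -0.28 and -0.81 without and -1.08, -0.30 and -1.48 with compound #57, and cholesterol genes -0.22, -0.48 and -0.65 without and -1.30, -0.24 and -1.11 with it. In MHCC97H the cholesterol median was thus nearer 0 with compound #57 than without. The difference of both effects had an unadjusted limma p under 0.05 for 1 of 15 fatty acid genes and 1 of 25 cholesterol genes. DNA replication had -0.10, -1.18 and -0.29 without compound #57, beside -0.29, -1.31 and -0.48. For RAS-MAPK targets in Hep3B the medians were 0.45 and 1.28, and SPRY4 there had 0.72 without and 4.44 with compound #57.

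The genes with the smallest p for this difference were not called and are given as values. STK24, a kinase, had -0.22, 0.00 and -0.10 without and 0.41, 0.59 and 0.48 with compound #57, a difference of 0.60 (SE 0.15). POLR1D differed by 0.56 (SE 0.15), the mitochondrial ribosomal protein MRPL45 by 0.61 (SE 0.17) and CAMLG by 0.80 (SE 0.24). In the other direction, BMF had 2.24, 2.83 and 2.68 without and 1.77, 1.98 and 1.95 with compound #57, a difference of -0.68 (SE 0.21). The cadherin FAT1 differed by -0.90 (SE 0.27), TTR by -1.65 (SE 0.49) and the motor protein MYO5C by -0.54 (SE 0.17). In MHCC97H, TTR had 2 reads with compound #57 and 0 with the combination. Reads listed under MIR6087 differed by -2.75 (SE 0.73).

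**Figure D5:**
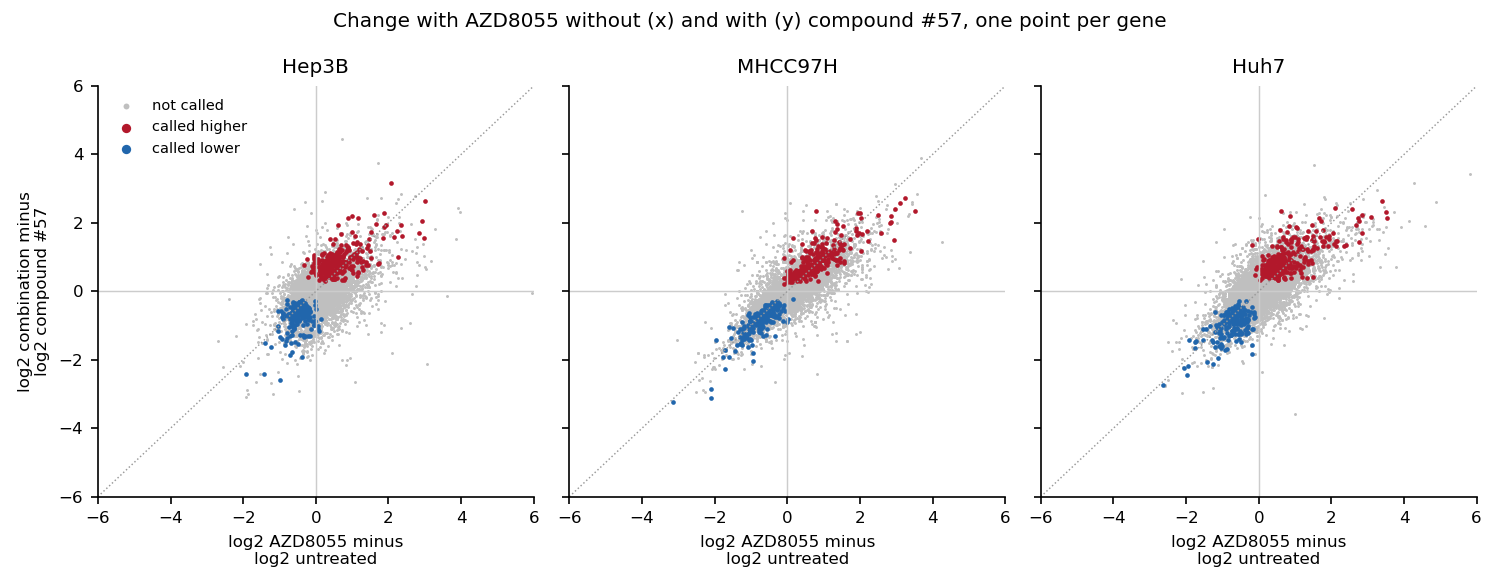
Log2-fold change with AZD8055 in the absence (x axis, AZD8055 minus untreated) and presence (y axis, combination minus compound #57) of compound #57 in each cell line, 1 point per gene, with genes called higher in red and lower in blue and a dotted line of equal change. Points spread along the dotted line in MHCC97H (Pearson 0.79) and more loosely in Hep3B (0.49).

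Within single lines, the largest changes were found in different genes, and they have no test. Among genes with at least 50 reads in 1 library of the pair, the highest in Hep3B included SPRY4 and C8orf4 (29 and 322 reads, 3.74, interval of the read ratio 3.26 to 4.41). The lowest in Hep3B were RP11-404G16.2 (-3.08), VSIG1 (-3.01) and CPS1, the first enzyme of the urea cycle (935 and 92 reads, -2.99, -3.33 to -2.70). CPS1 was also among the lowest in Huh7, with 1083 and 120 reads (-2.94, -3.24 to -2.68), while MHCC97H had 0 and 5 reads of it. In MHCC97H the highest were TXNIP, an inhibitor of thioredoxin and of glucose uptake (52 and 856 reads, 3.89, 3.52 to 4.36), RND1 (3.15) and TCP11L2 (2.85), and the lowest were PHGDH, PSAT1 and CLSPN, a replication checkpoint protein (-2.95). TXNIP was also higher in the other lines, at 1.77 in Hep3B and 2.29 in Huh7 (limma adjusted p = 0.076). In Huh7 the highest were MDGA1 (11 and 114 reads, 3.44), VGLL3, a cofactor of TEAD factors (3.15), and CREB3L1 (2.97), and the lowest were MIR6087 (-3.58), PLAU, urokinase (-2.98), and CPS1.

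Some genes moved in opposite directions. Of 9886 genes with at least 25 reads in every library, 20 changed at least 2-fold up in 1 line and at least 2-fold down in another. ABCA1, the exporter of cholesterol to apolipoproteins, went from 1358 to 803 in Hep3B and from 3385 to 1300 in Huh7, and from 172 to 420 in MHCC97H. Ceruloplasmin, CP, went from 1945 to 6084 in MHCC97H (1.64, interval 1.58 to 1.71) and from 523 to 248 in Huh7 (-1.07, -1.28 to -0.88). TSC22D3, SAT1, TRIM31 and CKB likewise were higher in MHCC97H and lower in both other lines. The nuclear RNA NEAT1 had -1.01 in Hep3B and 1.58 in Huh7. Between lines, the log2-fold changes of all genes had Pearson correlations of 0.52 for Hep3B and Huh7, 0.44 for MHCC97H and Huh7 and 0.28 for Hep3B and MHCC97H. The pair with the same exposure time had the highest value, which cannot be told apart from a likeness of the lines themselves.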

How the data were processed

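RNA was sequenced from 3 cell lines under 4 treatments, with 1 library each (12 libraries). The authors used a TruSeq kit. For every gene, the authors deposited a log2 value in each library, and the submitters' processing notes name hg38. The aligner, the counting and the normalization are not given in the sources used here. The scale was inferred: once 0.001 was subtracted from each, all were whole reads scaled to 10000000 per library, as the log2 of level plus 1, so 0.001 stands for 0 reads. Of 11548 rows, 18 bore names turned into dates and stayed in the tests unnamed, 3 names stood on 2 rows each, and 10566 (91.5%) had a position in GENCODE release 44. The kit's strand is not stated, so overlapping antisense genes cannot be told apart. The table held 98.6% to 99.2% of the reads of each library, and 305 genes had 0 reads in at least 1.

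limma 3.58.1 (R 4.3.3; lmFit, eBayes with trend) was fitted to all 12 libraries, with a term for treatment, another for cell line and 6 residual degrees of freedom. Genes with a Benjamini-Hochberg adjusted p under 0.05 over all 11548 were called. Libraries pair by cell line, and their deviations from the treatment means correlated at 0.92 in Hep3B, 0.96 in MHCC97H and 0.94 in Huh7. Within a line no p was computed, and 95% Clopper-Pearson intervals of read ratios were given. The fit and the intervals were tested on simulated data. Other steps used Python 3.11.15 with matplotlib 3.10.9, scipy 1.17.1, pandas 2.3.3 and numpy 2.4.6.

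The comparison and the 38 gene lists were chosen with earlier results of these data known. Named were 10 genes per direction with the largest smallest change, per list up to 3 called members per direction (2 members where none was called), 24 fixed genes, 5 per direction for the difference of effects, 3 per line and direction among genes with at least 50 reads in 1 library, and 10 genes with opposite changes. Other genes, with the members listed beside counts, were chosen after their values were seen. Some genes that the rule names are not reported here. Promoter sequences are from RefSeq (GRCh38.p14), and 8711 genes of the table matched by symbol. Alternatives were 10 added instead of 1, the upper 75% of genes by mean, median-centred libraries, no cell line term, no trend, voom on the reads, the compared libraries alone and each line left out.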

Additional observations from a re-analysis of the deposited data

How the results depend on the processing

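The count of called genes (483, of which 302 higher and 181 lower) was within 1.5 times with 10 added instead of 1, with the upper 75% of genes by mean, with centred libraries and with voom on the reads (488 to 633). It was 286 without the trend (188 higher and 98 lower) and 265 with only the libraries compared (173 and 92). Without the pairing by cell line as a block, 0 genes were called, 0 higher and 0 lower, with 370 at an unadjusted p under 0.05 by limma. Leaving out 1 line gave 0 to 331 calls, 0 to 178 higher and 0 to 153 lower, and 0 is the count without Huh7. None of the 483 genes changed sign in any of these fits, but for most of them this was fixed in advance. All 483 moved the same way in each line, so leaving out a line could not change the sign. The estimate is also unchanged without the cell line term, without the trend or with only the libraries compared. No gene was called for the difference of effects under any setting, with 2 to 409 at an unadjusted p under 0.05. Among the 75% of genes with the highest mean, the genes at least 2-fold higher and lower numbered 153 and 170 in Hep3B, 270 higher in MHCC97H, and 292 and 222 in Huh7. With at least 25 reads in 1 library of the pair, with centring or with 10 added these counts stayed within 1.5 times. Of the list medians over the 3 lines, that of hypoxia became 0.09 as a mean, that of receptor ligands 0.29 with the upper 75% of genes, that of BCL2 0.15 and 0.42 and that of MYC 0.11 and 0.15 (upper 75%, then mean), and the others moved by less than the SD over lines. Genes with under 25 reads are the least precise.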

Other observations

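The genes below lie outside the lists, were called higher and were chosen after their values were seen, so they stand for no group. GLTSCR2, which takes part in the assembly of the large ribosomal subunit, went from 1065 to 2634 in Hep3B, from 807 to 2550 in MHCC97H and from 833 to 1766 in Huh7, a mean log2-fold change of 1.35 (limma adjusted p = 0.00836). GNB2L1, which encodes the ribosome-bound scaffold RACK1, rose with 0.90, 0.47 and 0.90, the histone chaperone NAP1L1 with 1.12, 0.53 and 1.12, and SLC25A6, a mitochondrial carrier of ADP and ATP, with 1.21, 1.02 and 1.29. The small nucleolar RNA host ZFAS1 rose with 0.41, 0.92 and 1.78. The listed EEF1A1 copies EEF1A1P9, EEF1A1P11 and EEF1A1P13 rose with means of 1.35, 1.25 and 1.21, and since they are near-identical to EEF1A1 their reads may belong to it.

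The kinase PIM1 rose with 1.94, 1.25 and 2.31, the transcription factor KLF7 with 1.38, 1.84 and 1.53 and CREBRF with 1.21, 2.22 and 1.52.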
